A study of Saccharomyces cerevisiae with 8 samples.

Results

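The regions described here are the pericentromeres of budding yeast, taken as the DNA within 10 kb of either edge of the 16 annotated centromeres and outside the centromere itself. A peak was counted as pericentromeric when its centre lay in this window, a rule that uses position only. The window covers 320000 bp, or 2.65% of nuclear DNA. It held 1 of 17 nuclear ChIP peaks in *3Flag-CSE4*, 35 of 66 in *psh1Δ 3Flag-CSE4*, 194 of 4043 in *pGAL-3Flag-CSE4* and 531 of 14197 in *psh1Δ pGAL-3Flag-CSE4*. Among the input peaks, which map nucleosomes in general, it held 1255 of 39939, 1058 of 31256, 1230 of 39777 and 571 of 18902 in the same order.

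The study mapped Cse4, the budding yeast CENP-A, by sequencing DNA from chromatin that had been crosslinked with formaldehyde and cut with micrococcal nuclease (MNase), before (input) and after (ChIP) anti-Flag immunoprecipitation. Every strain lacked the endogenous *CSE4* gene and carried *3Flag-CSE4* under the *CSE4* promoter at *URA3*. A further copy under the galactose-inducible *GAL* promoter was present in *pGAL-3Flag-CSE4* as well as in *psh1Δ pGAL-3Flag-CSE4*, called the overexpressing strains below, and both *psh1Δ* strains lacked Psh1, the ubiquitin ligase that marks Cse4 for proteolysis. Asynchronous cultures in lactic acid medium received 2% galactose for 2 h in all 4 strains, so the strains without the *GAL* copy were exposed to the sugar as well. There was 1 library per strain and type, so differences between strains had no replicate spread to be measured against, no test between strains was made, and all intervals given are 95% intervals for counting error only.

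The budding yeast centromere is a point centromere, a short stretch of DNA with the conserved elements CDEI, CDEII and CDEIII, on which a single Cse4 nucleosome and the kinetochore assemble. The flanking pericentromere carries ordinary nucleosomes, is rich in cohesin, and holds genes and replication origins much as the arms do. It has no heterochromatin of the kind found around the centromeres of fission yeast or mammals.

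The deposited lists gave only the start and end of each peak, with no height and no read count, so the depth behind a peak is unknown. The paper lists mapped reads per library, and these differed between libraries. Among the ChIP libraries they were fewest in *psh1Δ 3Flag-CSE4*. The input library of *psh1Δ pGAL-3Flag-CSE4* had more of them than that of *3Flag-CSE4*. Peak numbers were taken as deposited, without adjustment for reads. ChIP peaks were called above 1 height shared by the strains, on a signal from which the input of the same strain had been subtracted and which had been scaled to the centromeres. *PSH1* (YOL054W) was overlapped by 8 input peaks in each *PSH1* strain and by 0 in each *psh1Δ* strain. The input lists differed in length, and that of *psh1Δ pGAL-3Flag-CSE4* was the shortest. In that input chromosome XI stood apart, with 3.48 peaks per kb against 1.03 to 1.86 on the other chromosomes, and the input of *psh1Δ 3Flag-CSE4* had 3.26 there against 2.00 to 3.06. The *3Flag-CSE4* input, with 3.44 peaks per kb on chromosome XI and 2.89 to 3.43 elsewhere, was therefore used as the common nucleosome map. Results that rest on chromosome XI are also given without it.

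Some of the sites outside centromeres that were under ChIP peaks in strains without the *GAL* copy are shown first, as plus-strand sequence of the RefSeq R64 reference. The left flank of *CEN9* held the 1 pericentromeric peak of *3Flag-CSE4*. That peak is in capitals within the longer peak called there in *psh1Δ 3Flag-CSE4*, which also covers the 3′ end of the uncharacterized gene *YIL001W*.
CEN9 left (chrIX:355360-355600): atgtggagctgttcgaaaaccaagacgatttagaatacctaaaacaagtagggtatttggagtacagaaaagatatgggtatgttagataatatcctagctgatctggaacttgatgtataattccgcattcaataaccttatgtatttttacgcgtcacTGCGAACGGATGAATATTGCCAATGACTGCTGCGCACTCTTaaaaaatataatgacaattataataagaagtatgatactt
At *CEN10*, *psh1Δ 3Flag-CSE4* had a peak on each side between *PRE3*, which encodes a proteasome subunit, and *AVT1*, which encodes a vacuolar amino acid transporter. They are shown whole as an example of the flanking pair. No base of them is in a gene.
CEN10 left (chrX:436140-436200): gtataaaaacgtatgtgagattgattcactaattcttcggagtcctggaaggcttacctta
CEN10 right (chrX:436480-436630): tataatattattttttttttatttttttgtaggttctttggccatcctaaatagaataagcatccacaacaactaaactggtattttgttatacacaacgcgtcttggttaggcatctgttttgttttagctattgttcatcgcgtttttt
The next sequences are the 4 pericentromeric peaks of *psh1Δ 3Flag-CSE4* that lay farther than 1 kb from a centromere, and the 1 peak of that strain with no counterpart in *pGAL-3Flag-CSE4*, at *CEN11*. Capitals mark bases inside an annotated gene.
CEN4 left, between ATP16 and MCD1 (chrIV:443780-443840): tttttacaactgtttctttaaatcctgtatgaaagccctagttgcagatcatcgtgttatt
CEN11 left, at SFT1 (chrXI:430600-430670): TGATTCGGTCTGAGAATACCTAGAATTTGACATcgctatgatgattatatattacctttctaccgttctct
CEN11 right, at ECM9 (chrXI:448010-448080): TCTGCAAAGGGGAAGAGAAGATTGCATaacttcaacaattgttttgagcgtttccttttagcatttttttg
CEN15 left, between PFA4 and IZH2 (chrXV:323190-323250): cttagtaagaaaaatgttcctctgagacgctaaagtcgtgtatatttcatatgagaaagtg
CEN11 right, at VPS1 (chrXI:440570-440630): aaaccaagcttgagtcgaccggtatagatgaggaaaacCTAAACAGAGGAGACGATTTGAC
For comparison, the CDEI and CDEIII elements of the same centromeres are shown on the strand of the centromere, which is the minus strand for *CEN10*. Capitals mark the letters searched for.
CEN9 CDEI (chrIX:355629-355638): TTCACGTGaa
CEN9 CDEIII (chrIX:355721-355745): tggttttgttTTCCGAAatgttttt
CEN10 CDEI (chrX:436416-436425): ATCACGTGtt
CEN10 CDEIII (chrX:436307-436331): tgtttatgatTTCCGAAcctaaata

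In windows of equal width around their centres, the peaks did not carry these elements more often than input peaks did. CDEI was searched as NTCACNTG and the CDEIII core as TTCCGAA, on both strands, and 0 hits of one overlapped a hit of the other in the pericentromeres and centromeres. The CDEI pattern was present in 16 of 16 centromeres and the CDEIII core in 14 of 16. In windows reaching 50 bp to either side of the peak centre, which remove differences in width, CDEI was present in 1 of 35 pericentromeric peaks of *psh1Δ 3Flag-CSE4*, in 2.58% of those of *pGAL-3Flag-CSE4* and in 3.01% of those of *psh1Δ pGAL-3Flag-CSE4*. Of all nuclear *3Flag-CSE4* input peaks, 3.45% held it. The CDEIII core was in 0 of 35, 0 of 194 and 0.942% of the peaks, against 1.21% of the input peaks. Over whole peaks, which differ in width, CDEI was in 2 of 35, 2.58% and 6.03%, in the same order, against 3.33% of nuclear input peaks. The CDEIII core was in 1 of 35, 0.515% and 2.26% of whole peaks, against 1.17%. Counts among 35 peaks are too small to show a difference either way. Absence of a match says only that these letters were not in the window.

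In A+T content the flanks were intermediate. The median was 86.0% in the centromeres (range 79.8 to 88.9%), 69.2% in the first 200 bp on both sides (64.2 to 73.5%) and 62.8% in the pericentromeres as a whole (61.8 to 63.8%). The pericentromeric peaks of *psh1Δ 3Flag-CSE4* had a median of 67.1%, from 55.7 to 75.6%, and the *3Flag-CSE4* peak at *CEN9* had 51.2%. The peaks of the overexpressing strains went from 65.3% and 65.5% within 1 kb to 63.4% and 61.9% beyond 5 kb, close to the 61.7% of nuclear DNA.

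The first comparison asked where, relative to the centromere, Cse4 lay when Psh1 was missing but Cse4 was expressed from its own promoter. In *psh1Δ 3Flag-CSE4* every one of the 16 centromeres had at least 1 peak beside it, and 31 of the 35 peaks lay within 462 bp of the edge. The distance of these 31 centres from the edge had a median of 160.0 bp. The peaks were narrow, with a median of 111 bp and a maximum of 361 bp. The widest, at *CEN11*, reached into the centromere, and the other 34 did not touch one. Peaks were seen on the left at 14 and on the right at 11 of the 16 centromeres within 500 bp of the edge, when the peak that touches *CEN11* is left aside, and 9 centromeres had them on both sides. *CEN2* had 3 peaks on its left flank, centred 97, 252 and 462 bp from the edge, and 0 on its right. *CEN14* had 2 peaks on its right, at 180 and 440 bp, and 0 on its left.

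**Figure D1:**
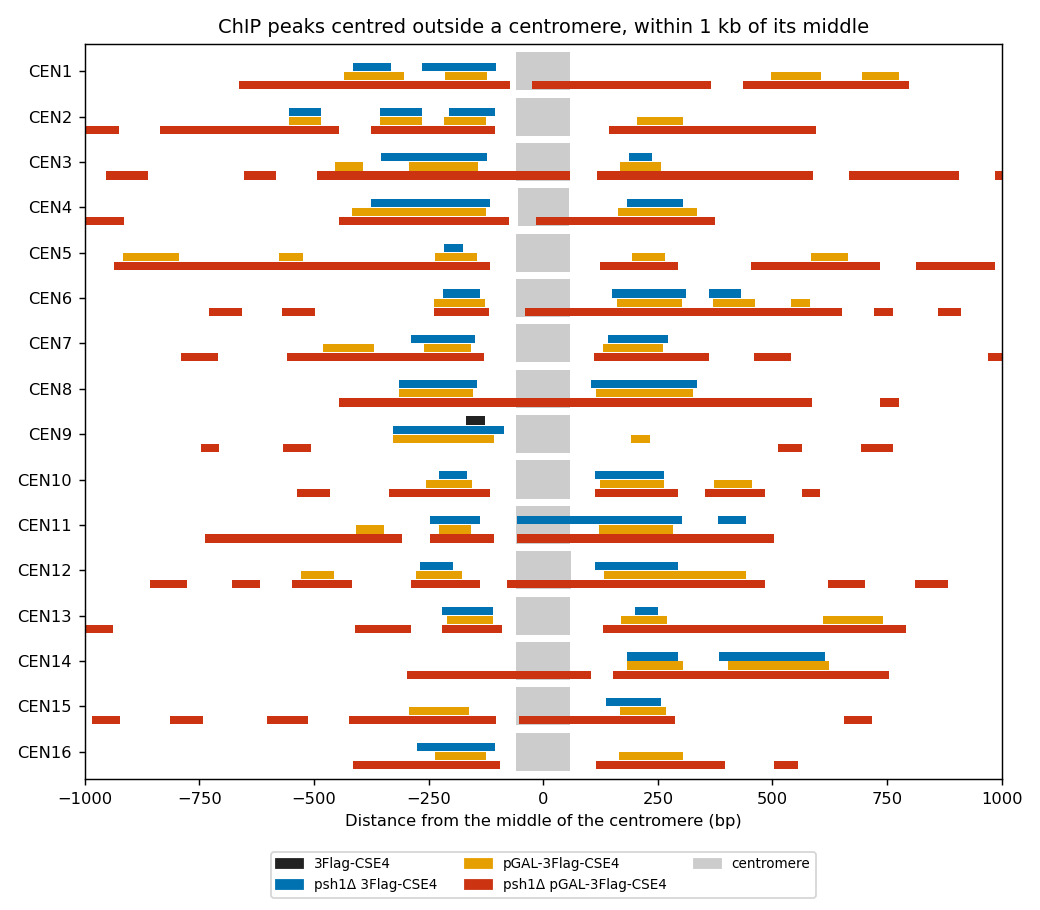
Each line is a centromere (grey block), and coloured bars are ChIP peaks centred outside it, by strain, plotted by distance in bp from the middle of the centromere in the direction of the chromosome coordinate. Peaks of *psh1Δ 3Flag-CSE4* sit within 500 bp of the edge at all 16 centromeres, *3Flag-CSE4* has its 1 peak at *CEN9*, and the peaks of *psh1Δ pGAL-3Flag-CSE4* reach up to 1031 bp in width at *CEN8*, where 1 peak spans the centromere.

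Most of these peaks lay in the intergenic DNA that holds the centromere. The gap between the genes on either side of a centromere was 630 to 2541 bp long (median 984 bp). Of the 35 peaks, 26 were centred in such a gap, 5 in a gene and 4 in another intergenic region. The 5 genes were the first beside their centromere: *TFC3*, which encodes a subunit of the RNA polymerase III factor TFIIIC, at *CEN1*, *DEG1*, which encodes a tRNA pseudouridine synthase, at *CEN6*, *EFM5*, which encodes a methyltransferase, at *CEN7*, *YIL001W* at *CEN9*, and *RRP6*, which encodes an exonuclease of the nuclear exosome, at *CEN15*. The centromere-holding gaps had 1.66 peaks per kb in this strain, against 0.0211 per kb in genes and 0.129 per kb in tandem intergenic regions. The convergent and divergent regions elsewhere in the pericentromere held 0 peaks.

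The remaining 4 peaks were isolated, and all were in tandem intergenic regions. One lay 3364 bp from *CEN15* between *PFA4*, which encodes a protein palmitoyltransferase, and *IZH2*. Another lay 5901 bp from *CEN4* between *ATP16*, which encodes a subunit of the mitochondrial ATP synthase, and *MCD1*, which encodes a cohesin subunit. The other two were both at *CEN11*, at 7799 bp between *ECM9* and *YKR005C* and at 9494 bp between *SFT1*, which encodes a Golgi SNARE, and the small nucleolar RNA gene *SNR87*. Between 1 and 3 kb there were 0 peaks over 259 input nucleosomes, which allows a share of up to 1.16%. From the last one inside the window at 9494 bp the next peak outward was 50959 bp from its centromere, also on chromosome XI. Without chromosome XI the strain had 30 pericentromeric peaks, of which 2 lay farther than 1 kb.

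The flanking peaks lay near the first input nucleosome beside the centromere, but not all overlapped one. Of the 31 peaks of *psh1Δ 3Flag-CSE4* within 1 kb, 23 were centred within 73 bp of a *3Flag-CSE4* input peak, and 27 of all 35 overlapped one by at least 1 bp. An input peak of *psh1Δ 3Flag-CSE4* itself was overlapped by 32 of the 35. On the 32 centromere sides, the share of sides under a ChIP peak of *psh1Δ 3Flag-CSE4* was highest 145 bp from the edge, at 25 sides, fell to 4 sides at 285 bp and stayed at 4 or fewer beyond. In *pGAL-3Flag-CSE4* the highest number was 29 sides, from 145 to 155 bp, with a lower second maximum of 9 sides at 345 bp. In *psh1Δ pGAL-3Flag-CSE4* all 32 sides were under a peak from 95 to 155 bp. The *3Flag-CSE4* input showed a regular array over the same distance, with maxima of 20 sides at 185 bp, 16 at 355 bp, 18 at 515 bp and 19 at 685 bp. ChIP peaks of *psh1Δ 3Flag-CSE4* and *pGAL-3Flag-CSE4* were thus frequent near the first position of the array and infrequent at the later ones, while the *3Flag-CSE4* ChIP list had 0 sides under a peak from 115 bp outward.

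**Figure D2:**
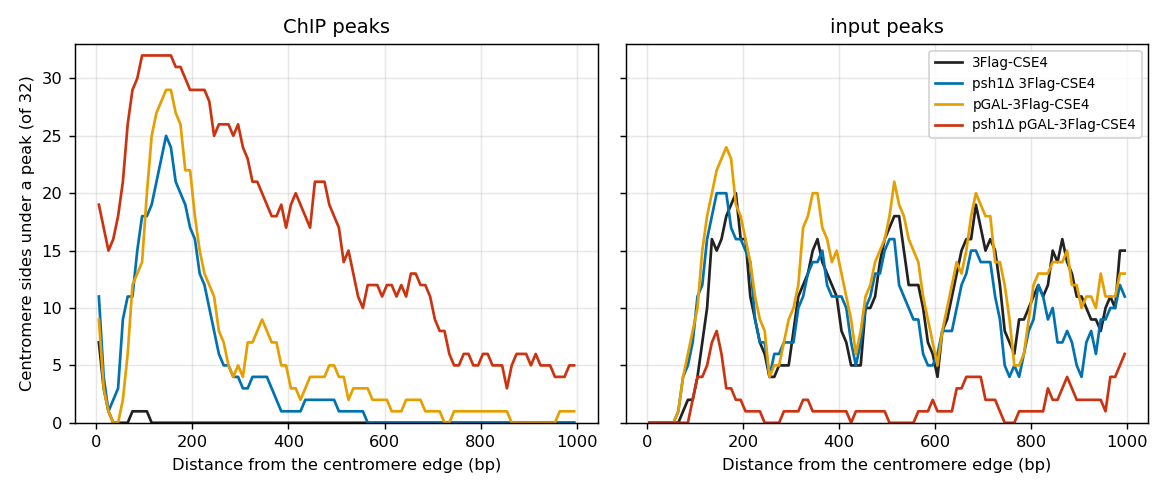
Number of the 32 centromere sides under a peak (y axis) against distance from the centromere edge in bp (x axis), for ChIP (left) and input (right) peaks of the 4 strains (coloured lines). ChIP peaks of *psh1Δ 3Flag-CSE4* and *pGAL-3Flag-CSE4* have their maximum at 145 bp, with 25 and 29 sides, the *3Flag-CSE4* input has maxima of 16 to 20 sides along the array, and the *psh1Δ pGAL-3Flag-CSE4* input never exceeds 9 sides.

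The decline with distance differed between strains. From 100 to 300 bp the mean share of sides under a ChIP peak was 45.3% for *psh1Δ 3Flag-CSE4*, 55.2% for *pGAL-3Flag-CSE4* and 90.9% for *psh1Δ pGAL-3Flag-CSE4*. From 600 to 1000 bp it was 0%, 2.58% and 22.1%. In the *3Flag-CSE4* input the shares were 33.3% and 36.9%. Other inputs differed from it, with 38.8% and 28.1% in *psh1Δ 3Flag-CSE4*, and 43.8% and 38.3% in *pGAL-3Flag-CSE4*. The input share near the edge was thus the lower one in *3Flag-CSE4* and the higher one in *psh1Δ 3Flag-CSE4* and *pGAL-3Flag-CSE4*.

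The position of the first flanking peak was compared side by side, on sides where both lists had a first flanking peak within 300 bp. In *psh1Δ 3Flag-CSE4* the ChIP peak was centred closer to the centromere than the *3Flag-CSE4* input peak on 16 of 20 sides, farther on 3 and equal on 1, with a median difference of -10.0 bp (range -190.0 to 45 bp). In *pGAL-3Flag-CSE4* it was closer on 17 of 25 sides and farther on 2, with a median of -15.0 bp. Against the input of the same strain *psh1Δ 3Flag-CSE4* was closer on 12 of 23 sides, equal on 5 and farther on 6, with a median of -5 bp. *pGAL-3Flag-CSE4* was closer on 17 of 29 sides, equal on 5 and farther on 7, with a median of -10.0 bp. Peak ends were on a grid of 10 bp, so these medians are at the limit of what the lists resolve, and the largest differences pair peaks at different positions of the array, not shifts within 1 nucleosome. The same comparison in *psh1Δ pGAL-3Flag-CSE4*, where peaks were wide and often merged, gave 6 closer and 6 farther of 12 sides, and against its own input 2 closer and 5 farther of 7.

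The second comparison asked how far ChIP peaks reached into the pericentromere in the overexpressing strains. In *pGAL-3Flag-CSE4* the first kb held 48 peaks and the following 1 kb steps held 8 to 24. In *psh1Δ pGAL-3Flag-CSE4* the first kb held 66 peaks and the later steps 38 to 59. The *3Flag-CSE4* input had 106 to 141 peaks in each step. The first kb thus held 88.6% of the pericentromeric peaks of *psh1Δ 3Flag-CSE4*, 24.7% of those of *pGAL-3Flag-CSE4* and 12.4% of those of *psh1Δ pGAL-3Flag-CSE4*, against 9.40% of the input peaks.

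**Figure D3:**
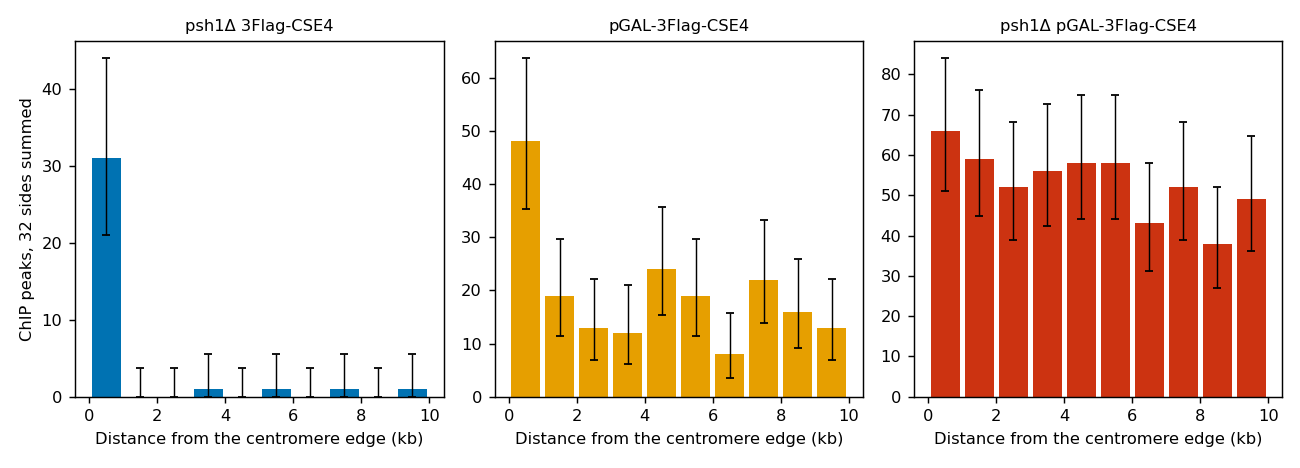
ChIP peaks in 1 kb steps from the centromere edge, summed over the 32 sides, in 3 strains with separate y axes that start at 0. Bars are counts and error bars are exact 95% Poisson intervals, which cover counting error only. The first step holds 31, 48 and 66 peaks, and only in *psh1Δ 3Flag-CSE4* are the later steps at 0 or 1.

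Per input nucleosome, peaks were 2.10 times as dense within 2 kb of the edge as at 8 to 10 kb in *pGAL-3Flag-CSE4* (1.34 to 3.37). The ratio was 1.31 in *psh1Δ pGAL-3Flag-CSE4* (0.987 to 1.74). The latter interval includes 1, but without chromosome XI the ratio was 1.45 (1.08 to 1.96), whose interval does not. In the other direction, it was 1.21 when the 9 peaks of *psh1Δ pGAL-3Flag-CSE4* that overlap a centromere were left out. In *psh1Δ 3Flag-CSE4* the ratio of 28.2 (4.70 to 1150.0) rests on 31 peaks near and 1 far, the far one on chromosome XI. Relative to *pGAL-3Flag-CSE4*, *psh1Δ pGAL-3Flag-CSE4* had 1.38 times as many peaks in the first kb, the 9 that overlap a centromere included. The number was 3.18 times as high from 1 to 10 kb and 3.51 times as high in the nuclear genome. Peak number falls where neighbouring peaks merge, so DNA under ChIP peaks was compared as well. It was 17.9% in *pGAL-3Flag-CSE4*, compared with 50% in *psh1Δ pGAL-3Flag-CSE4*, in the first kb, 4.28% compared with 23.2% from 1 to 10 kb, and 2.70% compared with 15.4% beyond 10 kb. By bases, too, the relative difference between these strains was smallest in the first kb. A share of bases has an upper limit, so the higher share of *pGAL-3Flag-CSE4* there left less room for a relative difference. In percentage points the difference was largest in the first kb.

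Pericentromeres were then set against the neighbouring arms, 10 to 50 kb from the centromere. In *psh1Δ 3Flag-CSE4* the arm zone held 0 peaks, against 35 in the smaller pericentromeric zone. *pGAL-3Flag-CSE4* had 0.606 peaks per kb in pericentromeres and 0.327 in the arm zone, a ratio of 1.86 (1.56 to 2.21). *psh1Δ pGAL-3Flag-CSE4* had 1.66 and 1.36, a ratio of 1.22 (1.10 to 1.34), or 1.24 (1.12 to 1.37) without chromosome XI. The ratio was 1.11 (1.04 to 1.18) for the *3Flag-CSE4* input and 0.960 (0.875 to 1.05) for the input of *psh1Δ pGAL-3Flag-CSE4* itself. With the first kb left out, a step chosen after seeing the data, the ratio was 1.55 (1.28 to 1.88) in *pGAL-3Flag-CSE4*, 1.18 (1.07 to 1.31) in *psh1Δ pGAL-3Flag-CSE4* and 1.12 (1.05 to 1.20) in the input, so the interval of *psh1Δ pGAL-3Flag-CSE4* included the input value. The window edge itself was not marked by a break, with the farthest peak inside at 9968 bp and the nearest outside at 10049 bp in *pGAL-3Flag-CSE4*, and at 9995 and 10039 bp in *psh1Δ pGAL-3Flag-CSE4*.

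Counting nucleosomes rather than peaks gave the same order. A nucleosome of the *3Flag-CSE4* input was called when a ChIP peak overlapped it by at least 1 bp. In *3Flag-CSE4*, 0 of 1255 pericentromeric nucleosomes were called, which allows a share of up to 0.239%, beside 0.00250% of all nuclear nucleosomes. In *psh1Δ 3Flag-CSE4* 27 were called, or 2.15% (1.48 to 3.11%), beside 0.110% of all nuclear nucleosomes. In *pGAL-3Flag-CSE4* it was 175, or 13.9% (12.1 to 16%), beside 9.31%, and in *psh1Δ pGAL-3Flag-CSE4* 593, or 47.3% (44.5 to 50%), beside 36.8%. The 3 strains other than *3Flag-CSE4* were all above the nuclear share. In the first kb 19.5%, 33.1% and 66.1% of 118 nucleosomes were called, and from 1 to 10 kb 0.352% (0.137 to 0.901%), 12% (10.2 to 14%) and 45.3% (42.4 to 48.2%) of 1137. In *psh1Δ pGAL-3Flag-CSE4* the nucleosomes from 1 to 10 kb thus remained above the nuclear share. At 10 to 50 kb the shares were 0% (0 of 4512 nucleosomes, which allows up to 0.0665%), 8.82% and 39.5%.

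ChIP lists were nested in the pericentromeres as in the rest of the genome. Of the 35 peaks of *psh1Δ 3Flag-CSE4*, 34 had a counterpart in *pGAL-3Flag-CSE4*, all 35 had one in *psh1Δ pGAL-3Flag-CSE4*, and 194 of the 194 peaks of *pGAL-3Flag-CSE4* had one in *psh1Δ pGAL-3Flag-CSE4*. Over all nuclear peaks these shares were 98.5%, 100% and 99.8%. The exception in the pericentromeres was the *CEN11* peak of 61 bp at chrXI:440570-440630, printed above. In the opposite direction, *pGAL-3Flag-CSE4* peaks overlapped 53.0% of *psh1Δ pGAL-3Flag-CSE4* peaks in the first kb and 22.9 to 27.9% of those in the farther intervals, beside 21.9% at 10 to 50 kb and 25.3% of all nuclear peaks. The shared peaks in the first kb had a median width of 371 bp and the others 71.0 bp. A wide peak meets a peak of another list more easily than a narrow one, so this difference in width is partly set by the overlap rule.

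The third comparison separated intergenic DNA from genes, since the pericentromere holds both. Intergenic DNA was 26.1% of the pericentromere and 26.5% of the DNA beyond it. In *pGAL-3Flag-CSE4*, ChIP peaks covered 17.9% of intergenic bases and 1.32% of gene bases in pericentromeres, against 8.29% and 0.687% beyond 10 kb. In *psh1Δ pGAL-3Flag-CSE4* they covered 63.4% and 12.6%, against 41.8% and 5.84%. ChIP coverage was thus higher in pericentromeres for intergenic DNA and for genes alike. The *3Flag-CSE4* input was also higher there, with 35.8% of intergenic and 44.3% of gene bases, against 32.1% and 33.4% beyond 10 kb. At 10 to 50 kb, ChIP peaks covered 8.18% and 0.855% in *pGAL-3Flag-CSE4*, and 43.3% and 7.48% in *psh1Δ pGAL-3Flag-CSE4*. ChIP coverage from 1 to 10 kb was above both zones. There *pGAL-3Flag-CSE4* peaks covered 14.5% of intergenic and 1.11% of gene bases, and *psh1Δ pGAL-3Flag-CSE4* peaks 59.7% and 11.8%.

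By peak centre, 77.3% of pericentromeric peaks were intergenic in *pGAL-3Flag-CSE4* (70.9 to 82.6%), and 79.1% (77.8 to 80.3%) elsewhere, with overlapping intervals. In *psh1Δ pGAL-3Flag-CSE4* the share was 45.8% (41.6 to 50%), below the 62.3% (61.5 to 63.1%) elsewhere. It was above the 24.2% of pericentromeric *3Flag-CSE4* input peaks. In the input of *psh1Δ pGAL-3Flag-CSE4* itself, 35.9% of pericentromeric peaks were intergenic, also below the 43.0% elsewhere. Among ChIP peaks of that strain, the share was lower in pericentromeres than elsewhere for peaks under 300 bp. Of the peaks under 100 bp, 17% (13 to 21.8%) were intergenic in pericentromeres and 40.5% (39.3 to 41.7%) elsewhere. Of those from 100 bp to under 300 bp 67.1% (59.6 to 73.8%) and 81.6% (80.5 to 82.6%) were, whereas of those of 300 bp or more 95.6% (89.1 to 98.3%) and 95.1% (93.9 to 96.1%) were. Wide peaks also count once however much intergenic DNA they cover, and by bases 64% of the pericentromeric DNA under these peaks was intergenic, against 72% elsewhere.

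Among intergenic regions, the gap that holds the centromere was the densest in *pGAL-3Flag-CSE4*, with 2.56 peaks per kb, followed by 2.26 in tandem, 1.16 in convergent and 1.03 in divergent regions. In *psh1Δ pGAL-3Flag-CSE4* the order was different, with 3.28 peaks per kb in divergent, 2.90 in tandem, 2.79 in convergent and 2.50 in centromere-holding gaps. The *3Flag-CSE4* input had 4.04, 3.93, 3.00 and 3.07 in this second order, so input nucleosomes were themselves densest in divergent and tandem regions. Peak number falls where wide peaks merge, so a lower number per kb does not mean less DNA under peaks. By bases, ChIP peaks of *psh1Δ pGAL-3Flag-CSE4* covered 79.3% of intergenic DNA in the first kb, against 59.7% from 1 to 10 kb.

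Genes with their annotated start within 10 kb of a centromere numbered 179, of which 170 are protein-coding, 6 encode tRNAs and 3 snoRNAs. A ChIP peak overlapped the 500 bp upstream of the start in 7 of them in *3Flag-CSE4*, beside 0.109% of all nuclear genes, and in 11 in *psh1Δ 3Flag-CSE4* (6.15%, 3.47 to 10.7%), beside 0.327%. The 7 windows in *3Flag-CSE4* belong to genes whose promoter reaches the centromere or its edge, namely *TFC3*, *LOC1*, *ERG26*, *OSH7*, *AVT1*, *RRP6* and *CIT3*. The 4 that *psh1Δ 3Flag-CSE4* added were *ECM15* at *CEN2*, *SFT1* and *ECM9* near *CEN11* and *PFA4* near *CEN15*. In *pGAL-3Flag-CSE4* 121 windows were overlapped (67.6%, 60.4 to 74.0%), beside 47.1% of nuclear genes, and in *psh1Δ pGAL-3Flag-CSE4* 175 (97.8%, 94.4 to 99.1%), beside 92.5%. The 4 genes without a promoter peak in *psh1Δ pGAL-3Flag-CSE4* were *YDR003W-A* near *CEN4*, *VRL1* near *CEN13* and the tRNA genes *SUF10* and *YNCN0017W* near *CEN14*.

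Other features in the window were few. A ChIP peak lay within 200 bp of 14 of the 16 pericentromeric replication origins in *pGAL-3Flag-CSE4* and of 16 in *psh1Δ pGAL-3Flag-CSE4*, against 62.2% and 90.5% of the 336 origins elsewhere. For tRNA genes the numbers were 3 and 5 of 6, against 29.0% and 94.4% of 269 elsewhere. For long terminal repeats they were 6 and 9 of 11, against 19.6% and 74.8% of 373. With so few features in the window, these shares are descriptions of single sites.

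The fourth comparison was by side and chromosome. The left side held 57.1% of peaks of *psh1Δ 3Flag-CSE4* (40.9 to 72%), 43.3% of *pGAL-3Flag-CSE4* (36.5 to 50.3%) and 50.7% of *psh1Δ pGAL-3Flag-CSE4* (46.4 to 54.9%), against 47.0% (44.3 to 49.8%) of the *3Flag-CSE4* input, and all 3 intervals overlapped that of the input. When sides were named by the orientation of the centromere, the side of CDEI held 21 of 35, 97 of 194 and 290 of 531 peaks. The last is 54.6% (50.4 to 58.8%), against 50.1% (47.4 to 52.9%) of input peaks, with overlapping intervals. Within 1 kb the CDEI and CDEIII sides held 33 peaks each in that strain.

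Every centromere had pericentromeric peaks in the 3 strains other than *3Flag-CSE4*. In *psh1Δ 3Flag-CSE4* the number ran from 1 to 5 (median 2.00), with the highest at *CEN11*. In *pGAL-3Flag-CSE4* it ran from 8 to 16 (median 12). It was highest at *CEN12* with 16 and *CEN3* with 15, followed by *CEN4*, *CEN5*, *CEN6* and *CEN13* with 14 each, and lowest at *CEN1* with 8, *CEN10* with 9 and *CEN11* and *CEN14* with 10 each. In *psh1Δ pGAL-3Flag-CSE4* it ran from 22 to 51 (median 34.0). It was highest at *CEN3* with 51, *CEN11* with 41 and *CEN9* with 39, and lowest at *CEN6* and *CEN14* with 22 each and *CEN10* with 27. *CEN3* was thus high and *CEN10* and *CEN14* low in both overexpressing strains, while *CEN1*, *CEN6* and *CEN11* changed place. *CEN1* had the fewest peaks in *pGAL-3Flag-CSE4*, but 37 in *psh1Δ pGAL-3Flag-CSE4*. The high numbers at *CEN11* were not limited to the pericentromere. Over the whole of chromosome XI, *psh1Δ pGAL-3Flag-CSE4* had 1.82 ChIP peaks per kb, against 0.964 to 1.33 on the other chromosomes. In *psh1Δ 3Flag-CSE4* it was 0.0225 against 0.00275 to 0.0148.

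**Figure D4:**
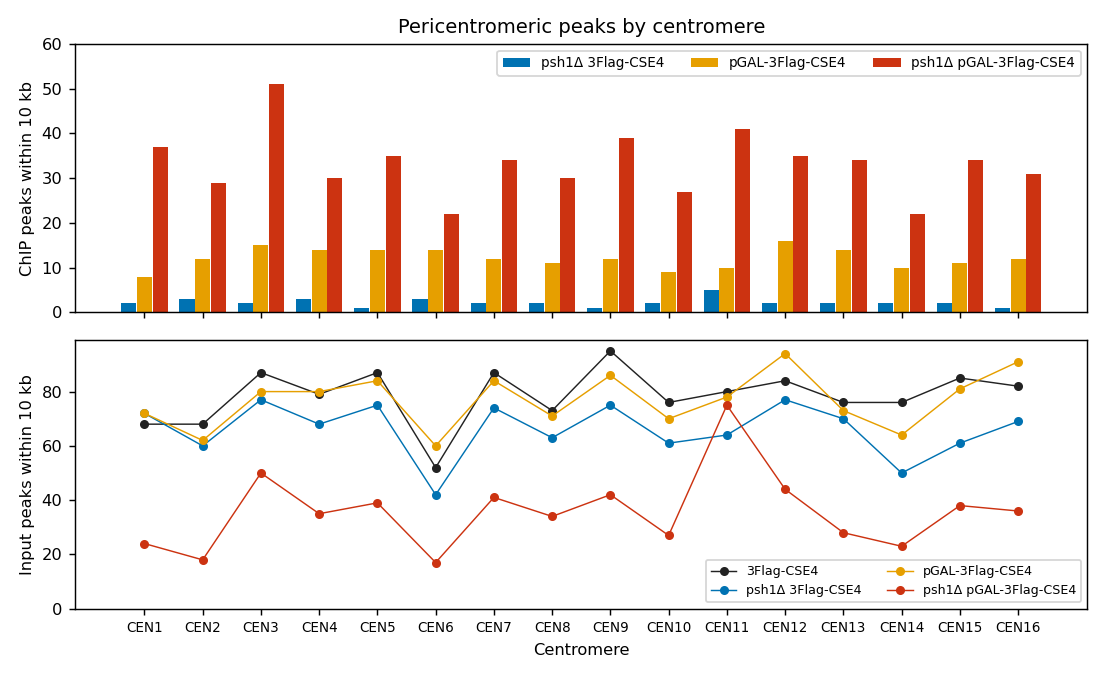
Peaks within 10 kb of each of the 16 centromeres. The upper panel shows ChIP peaks in 3 strains (bars) and the lower panel input peaks in 4 strains (points, joined for reading only). The *psh1Δ pGAL-3Flag-CSE4* input has 75 peaks at *CEN11* and 17 to 50 at the other centromeres, and its ChIP list is highest at *CEN3* with 51.

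Divided by the *3Flag-CSE4* input peaks of the same window, the range was 0.118 to 0.269 (median 0.149) in *pGAL-3Flag-CSE4* and 0.289 to 0.586 (median 0.411) in *psh1Δ pGAL-3Flag-CSE4*. *CEN6*, with the fewest input peaks of the 16 (52), had the highest value of *pGAL-3Flag-CSE4*. Over the 16 centromeres the values of the overexpressing strains were weakly related, with a Spearman rho of 0.185 and a Pearson r of 0.0631, which describe windows that share the same divisor. The share of intergenic DNA in a window ran from 19% at *CEN12* to 41.5% at *CEN3*. This share had a rho of 0.0647 and an r of 0.0458 with the *pGAL-3Flag-CSE4* value. With that of *psh1Δ pGAL-3Flag-CSE4* it had a rho of 0.0765 and an r of 0.259.

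The widest pericentromeric peaks of *pGAL-3Flag-CSE4* were short and mostly beside the centromere. They were 311 bp to the right of *CEN12* between *DNM1* and *YLR001C*, 291 bp to the left of *CEN4* between *RMD1* and *NTH1*, and 221 bp each to the left of *CEN9*, to the right of *CEN14* and 9637 bp from *CEN8* between *GPA1*, which encodes the G protein alpha subunit of pheromone signalling, and *TIM10*, which encodes a mitochondrial import chaperone. In *psh1Δ pGAL-3Flag-CSE4* they were several nucleosomes long. The peak of 1031 bp over *CEN8* lay between *RPL14B* and *OSH7*, reached into *OSH7* and overlapped 3 separate peaks in *pGAL-3Flag-CSE4*. The others were 1021 bp at 4080 bp from *CEN6* between *YFL002W-A* and *SPB4*, 821 bp to the left of *CEN5* between *IRC22* and *MNN1*, 691 bp to the right of *CEN6* reaching into the centromere, and 671 bp at *ECM9*, 7779 bp from *CEN11*. The 3 of these beside a centromere overlapped 0 input peaks of *psh1Δ pGAL-3Flag-CSE4*, where the *3Flag-CSE4* input had 1 or 2.

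The input lists were compared last, because ChIP peaks were called after subtraction of the input. A *3Flag-CSE4* input nucleosome was taken as retained when an input peak of another strain overlapped it by at least 1 bp. Of the 1255 pericentromeric nucleosomes, 75.3% (72.8 to 77.6%) were retained by *psh1Δ 3Flag-CSE4*, 85.7% (83.7 to 87.6%) by *pGAL-3Flag-CSE4* and 42.9% (40.2 to 45.7%) by *psh1Δ pGAL-3Flag-CSE4*. Over all nuclear nucleosomes the shares were 69.5%, 85.9% and 43.6%, and at 10 to 50 kb 75.1%, 83.6% and 49.0%. Retention in the pericentromeres of *psh1Δ pGAL-3Flag-CSE4* was thus near the nuclear share and below that of the neighbouring arms.

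The first kb stood apart in *psh1Δ pGAL-3Flag-CSE4*. There 24 of 118 nucleosomes were retained, or 20.3% (14.1 to 28.5%), against 38.3 to 50% in each of the following 1 kb steps. In the other strains the first kb was not low, with 77.1% (68.8 to 83.8%) in *psh1Δ 3Flag-CSE4* and 94.1% (88.3 to 97.1%) in *pGAL-3Flag-CSE4*. The number of input peaks in the first kb was 118 for *3Flag-CSE4*, 111 for *psh1Δ 3Flag-CSE4*, 137 for *pGAL-3Flag-CSE4* but 26 for *psh1Δ pGAL-3Flag-CSE4*. Of the 24 retained nucleosomes, 6 were at *CEN11*, and without it 18 of 110 were retained (16.4%). *CEN4*, *CEN12* and *CEN16* retained 0.

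**Figure D5:**
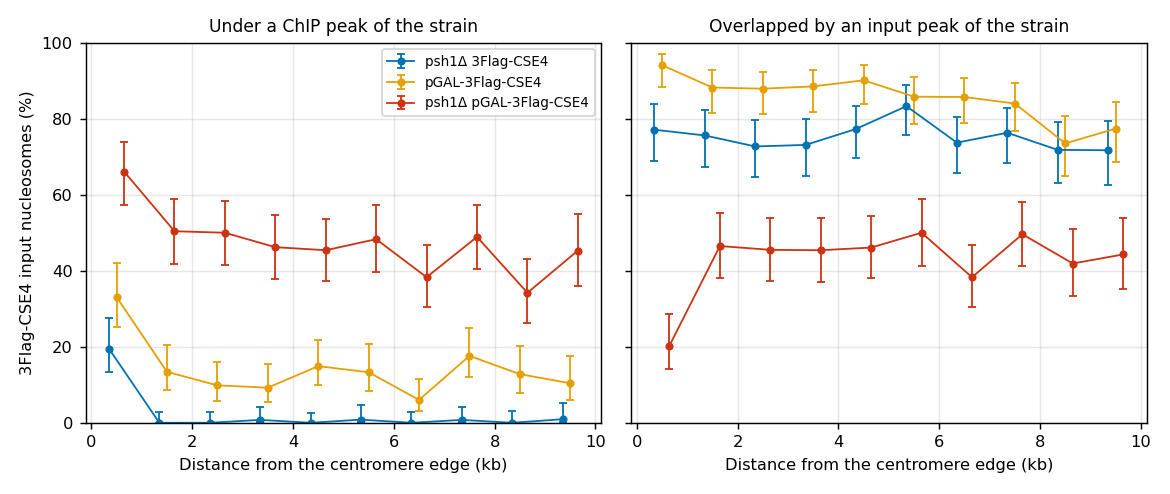
Share of *3Flag-CSE4* input nucleosomes (y axis, percent) in 1 kb steps from the centromere edge (x axis, kb) that lay under a ChIP peak of each strain (left) or under an input peak of it (right), with 95% Wilson intervals for counting error only and points offset sideways for reading. In *psh1Δ pGAL-3Flag-CSE4* the first step is the highest on the left, at 66.1%, and the lowest on the right, at 20.3%.

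The first kb of *psh1Δ pGAL-3Flag-CSE4* thus had the highest share of nucleosomes under ChIP peaks, 66.1%, and the lowest share under input peaks. Whether the sparse input there raised the ChIP signal through the subtraction was not tested. Over the whole pericentromere, 64.1% (60.1 to 67.8%) of the 593 nucleosomes under a ChIP peak of that strain were retained in its input. Of the 662 others, 24% (20.9 to 27.4%) were. This count was not split by distance, so it does not describe the first kb. In *pGAL-3Flag-CSE4* 175 of 175 nucleosomes under a ChIP peak were retained, against 83.4% (81.1 to 85.5%) of the others.

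Retention in *psh1Δ pGAL-3Flag-CSE4* also varied between centromeres. It was 92.5% at *CEN11* and 26.5 to 52.9% at the others, and without chromosome XI the total was 39.6%. At *CEN11*, 80 of 80 nucleosomes were retained in *psh1Δ 3Flag-CSE4* and 72 of 80 in *pGAL-3Flag-CSE4*. The widest pericentromeric input peaks of both *psh1Δ* strains were there, the longest being 1981 bp over *BYE1* in *psh1Δ 3Flag-CSE4*. In *psh1Δ 3Flag-CSE4*, *CEN11* had also the most ChIP peaks, while its input list held 64 peaks there, below the median of 68.5 over the 16 centromeres.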

How the data were processed

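Peak lists of 8 libraries were used, with 1 input and 1 ChIP library for each of 4 strains, grouped by the deposited sample labels. Paired reads were aligned by the authors to sacCer3 with BWA; they kept mononucleosome-sized pairs with a mapping score of at least 30, and called peaks per library with DANPOS2. ChIP signal was input-subtracted, scaled to the centromeres, set to 0 at ribosomal DNA and cut at 1 height taken from *3Flag-CSE4*; the settings for the input are not given in the sources used here. CASAVA, BWA and SAMtools are named in the submitters' processing notes. The deposited files hold start and end positions in bp, an other unit with no normalization, and a deposited score that is 0 in every line, so neither the depth nor the height of a peak could be used.

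Positions are on R64, the sacCer3 sequence, with RefSeq annotation, counted from 1, and 0 peak ends lay beyond a chromosome. Distance ran from the peak centre to the centromere edge. Shares carry 95% Wilson intervals, numbers exact Poisson intervals and ratios exact conditional intervals. Overlap meant at least 1 bp. Zero shares were bounded by 3 counts. Members, gene and feature lists, and the named items (pericentromeric peaks of the strains without the *GAL* copy, the 3 centromeres with most and with fewest peaks including ties, the 5 widest peaks of each overexpressing strain) were chosen with earlier results of these data known. Of the pericentromeric peaks of the strains without the *GAL* copy, only some are printed or named singly. The counting was tested on simulated lists. Python 3.11.15, numpy 2.4.6, scipy 1.17.1 and matplotlib 3.10.9 were used. The sets of 4 genes named for their promoter peaks were chosen after their values were seen.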

Additional observations from a re-analysis of the deposited data

Results flagged for a closer look

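The pericentromeric share of nuclear ChIP peaks moved in opposite directions with *psh1Δ* in the presence and absence of the *GAL* copy. Without the copy it was 5.88% in *3Flag-CSE4*, against 53.0% in *psh1Δ 3Flag-CSE4*, a difference of 47.1 percentage points. With the copy it was 4.80% in *pGAL-3Flag-CSE4*, compared with 3.74% in *psh1Δ pGAL-3Flag-CSE4*, a difference of -1.06 percentage points. The share of input peaks also moved in opposite directions, by 0.243 percentage points without the copy (3.14%, 2.98 to 3.32%, and 3.38%, 3.19 to 3.59%) and by -0.0714 with it (3.09%, 2.93 to 3.27%, and 3.02%, 2.79 to 3.27%). The input intervals overlap within each pair, so the changes of the input lie within counting error. With 1 library per strain, neither contrast was tested.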

How the results depend on the processing

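No paired analysis was possible because there was 1 input and 1 ChIP library per strain. Of 93 alternatives for 24 values, 73 stayed within 1.5 times the count or within the counting interval of the value. Some could hardly move, because their interval was wide, such as 4.70 to 1150.0 for the near to far ratio of *psh1Δ 3Flag-CSE4*. The tally is therefore not a measure of robustness. A turn of direction was looked for only in ratios of near to far density whose interval lay above 1, and 0 were seen. For the other values it was not defined. Requiring peaks of at least 50 bp removed the 41 bp *3Flag-CSE4* peak, so that its number and its share of nuclear peaks became 0. A window of 5 kb or 20 kb gave pericentromeric shares of ChIP peaks of 2.87% or 7.99% in *pGAL-3Flag-CSE4* and 2.05% or 7.04% in *psh1Δ pGAL-3Flag-CSE4*, which follow from the amount of DNA. The share of nucleosomes under ChIP peaks was 3.70% or 1.14% in *psh1Δ 3Flag-CSE4* with 5 or 20 kb, and 51.2% in *psh1Δ pGAL-3Flag-CSE4* with 5 kb. On the input of the same strain it was 16% for *pGAL-3Flag-CSE4* and 69.5% for *psh1Δ pGAL-3Flag-CSE4*, and with at least 50% of the nucleosome covered 11.6% and 41.3%. Taking as intergenic only peaks free of gene bases lowered that share to 64.4% and 24.9%. Retention fell to 68.8%, 80.6% and 37.1% for *psh1Δ 3Flag-CSE4*, *pGAL-3Flag-CSE4* and finally *psh1Δ pGAL-3Flag-CSE4* when 50% of the nucleosome had to overlap, was 89.7% in *pGAL-3Flag-CSE4* within 5 kb, and 39.6% in *psh1Δ pGAL-3Flag-CSE4* without chromosome XI, an alternative chosen after seeing the data. The ratio of near to far density in *psh1Δ 3Flag-CSE4* has no value without chromosome XI, where 0 far peaks remain. Lists without heights allow no stricter threshold, and depth per peak is unknown.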
